A study of Pyrus syriaca and Pyrus pyrifolia and Pyrus communis with 12 samples.

Results

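The miR164 family was followed through stigma exudates and stigmas of 6 pear genotypes, as 4 of the 355 mature microRNA (miR) sequences counted and 4 of the 120 that had a read. Its members were taken by name: mdm-miR164b, fve-miR164c, mdm-miR164a and fve-miR164a-3p, where mdm and fve stand for the apple and strawberry entries with which the pear reads were matched. The cultivated pears were P. pyrifolia cv. Hosui and cv. Shinsui and P. communis cv. Spadona, sampled at 430 m, and the wild pears were P. syriaca from Golan (900 m), Manara (450 m) and SASA (830 m). Every library came from pooled, non-pollinated flowers at 12 hours after anthesis, and each genotype gave 1 exudate and 1 stigma library, so the genotypes are the replicates and species is represented by 1 to 3 of them. The libraries were shallow, with 27 to 176 miR reads in exudates and 199 to 1777 in stigmas. A miR count table holds no messenger RNA marker, so the labelled tissues could not be checked against marker genes.

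miR164 is an old plant family that guides the cleavage of messenger RNAs of NAC transcription factors. In Arabidopsis its targets include CUC1 and CUC2, which set the boundaries between organs, NAC1, which acts in auxin-dependent lateral root formation, and ORE1, which promotes leaf senescence. The guide strand is the 5p arm, and the opposite 3p arm is usually degraded.

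The mature sequences are shown because the members differ at few bases, with the seed (bases 2 to 8) in capitals.
mdm-miR164b: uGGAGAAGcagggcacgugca
fve-miR164c: uGGAGAAGcagggcacaugcu
mdm-miR164a: uGGAGAAGcagggcacaugcc
fve-miR164a-3p: cACGUGCUccccuucuccaac

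The 3 5p members shared the seed GGAGAAG, and fve-miR164a-3p had the seed ACGUGCU. Counted from the 5′ end, mdm-miR164b and fve-miR164c differed by G17A and A21U, mdm-miR164b and mdm-miR164a by G17A and A21C, and fve-miR164c and mdm-miR164a by U21C alone. The sequence of mdm-miR164b is listed under 86 names from 32 species prefixes, against 10 names for fve-miR164c, 2 for fve-miR164a-3p and 1 for mdm-miR164a. The table places the precursor of fve-miR164c at LG6:27395980-27396093 on the plus strand, that of fve-miR164a-3p at LG2:16008057-16008167 on the minus strand, and that of mdm-miR164a on the apple contig MDC019151.253 from 7777 to 7880 on the minus strand. The builds are not given in the sources used here, and the row of mdm-miR164b carries no position. Reads were accepted with a small share of mismatched bases. fve-miR164c and mdm-miR164a differ within that share (4.76% of bases), so a read of one can have been counted under the other. mdm-miR164b differs from each at 9.52% of bases, beyond that share in a full-length read, but at 5% of the first 20. Reads without base 21 can thus have been exchanged between mdm-miR164b and these 2 members. A full-length read with only 1 of the 2 differences also lies within that share of either side. Base 21 of mdm-miR164b is an A, and trimming removed the poly-A added during library preparation. Its reads can therefore often lack that base, and how often was not tested. The split within the family is uncertain to that extent.

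mdm-miR164b carried nearly all reads of the family in both tissues. The wild stigmas gave 900 (Golan), 610 (Manara) and 222 (SASA) of its reads, and the cultivated stigmas 181 (Spadona), 45 (Hosui) and 2 (Shinsui), together 1960 of 1992 family reads or 98.4% (Wilson 95% interval 97.7 to 98.9). In exudates it had 29 reads in Manara, 8 in Golan, 2 in Spadona and 1 in Hosui, and no read in Shinsui or SASA, together 40 of 41 family reads. Wild Golan and Manara thus held the most reads in both tissues, and they also had the deepest stigma libraries.

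The minor members were counted almost only in stigmas. fve-miR164c had 8 stigma reads in Manara, 6 in Golan, 2 in SASA and 1 in Spadona, and 1 exudate read, in Manara. mdm-miR164a had 6 stigma reads in Manara, 3 in Golan, 2 in Spadona and 1 in SASA, and no exudate read. fve-miR164a-3p, the opposite arm, had 1 stigma read in Hosui and 2 in Golan, and no exudate read. Neither P. pyrifolia cultivar gave a read of the 2 minor 5p members. A count of 0 allowed up to 3 reads of a library, which is 1.70% (Manara) to 11.1% (SASA) of an exudate library and 0.169% to 1.51% of a stigma library. Every stigma share of a minor member lay under the limit of the matching exudate, so a loss of these members in exudates was not detectable at this depth.

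**Figure D1:**
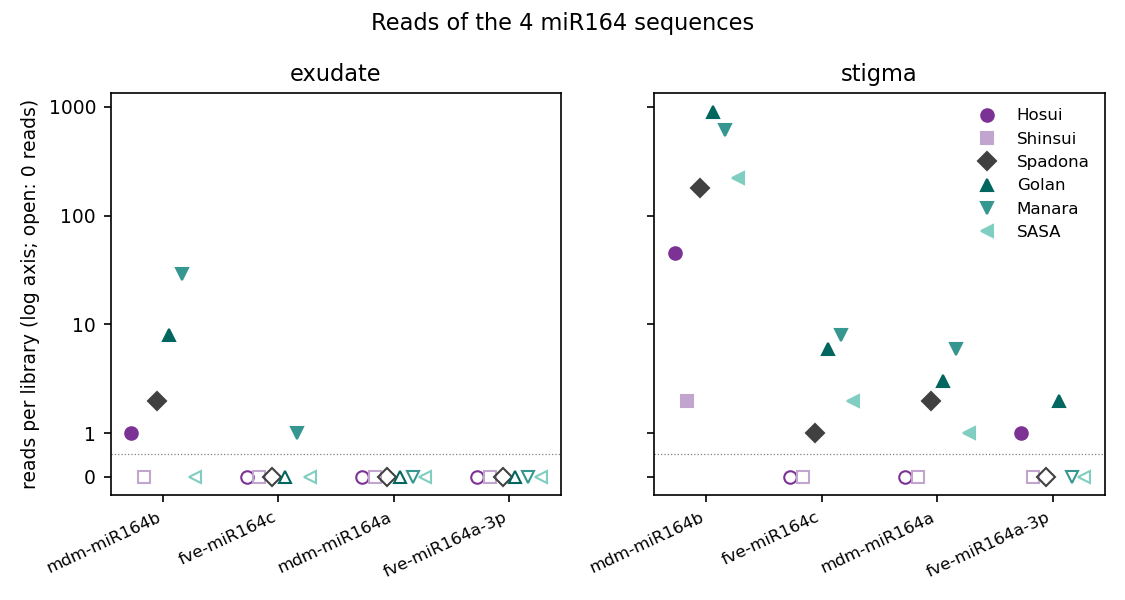
Reads of the 4 miR164 sequences (x axis) per library on a log axis (y axis), exudates on the left and stigmas on the right, with 1 symbol per genotype and open symbols for 0 reads. mdm-miR164b reached 900 reads in a stigma, whereas no minor member passed 8.

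With at least 2 reads in 1 library as the rule for presence, all 4 members were present in stigmas and 1, mdm-miR164b, in exudates. With at least 3 reads, or with 2 reads in 2 libraries, fve-miR164a-3p dropped out and 3 members were present in stigmas. mdm-miR164a and fve-miR164a-3p had no exudate read, as did 24 of the 71 miRs present in stigmas (33.8%).

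As a share of miR reads, mdm-miR164b led the stigma. It was the most abundant miR in the stigmas of Spadona, Golan, Manara and SASA, the 2nd in Hosui, and tied for rank 10 in Shinsui. The share was 54.3% in Golan (Wilson 95% interval 51.9 to 56.7), 35.4% in Spadona (31.3 to 39.6), 34.3% in Manara (32.2 to 36.6), 27.96% in SASA (24.9 to 31.2), 13.4% in Hosui (10.1 to 17.4) and 1.01% in Shinsui (0.276 to 3.59). In this order the intervals of Spadona and Manara overlapped, and all other neighbours were apart. The intervals treat each read as an independent count and leave out variation between libraries, as each genotype and tissue had 1 library. The reads carry no molecular identifiers, so copies of 1 molecule count separately and the intervals can be too narrow.

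In exudates the share was 16.5% in Manara (11.7 to 22.7), 16.0% in Golan (8.34 to 28.5), 4.08% in Spadona (1.13 to 13.7) and 2.44% in Hosui (0.432 to 12.6). Shinsui and SASA had no read, which allows up to 3.797% and 11.1%. All neighbours in this order had overlapping intervals, and only Manara and Golan, both above Shinsui, were apart from another exudate by their intervals.

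**Figure D2:**
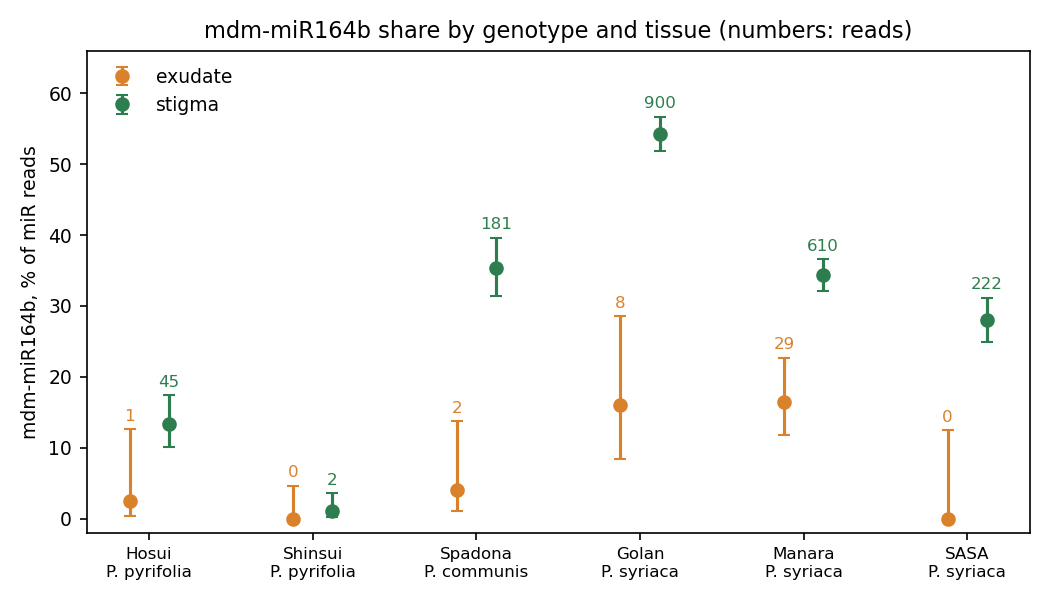
Share of mdm-miR164b in all miR reads (y axis, %) for each genotype (x axis) in exudate and stigma, with Wilson 95% intervals as bars and the reads as numbers. The stigma share was the higher one in all 6 genotypes, from 1.01% in Shinsui to 54.3% in Golan.

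The first comparison asked how the family differs between the secreted exudate and the tissue below it. mdm-miR164b took 6.50% ± 7.70 of exudate reads and 27.7% ± 18.6 of stigma reads (SD, n = 6), and its share was lower in every exudate than in the stigma of the same genotype. The difference averaged -21.2 ± 13.9 percentage points (SD, n = 6). Of 35 miRs with at least 10 reads, 3 (8.57%) were lower in all 6. The intervals of the tissues were apart in Spadona, Golan, Manara and SASA, and overlapped in Hosui and Shinsui. In the exact two-sided sign-flip test over genotypes the difference gave p = 0.03125, the smallest p that 6 pairs allow. After Benjamini-Hochberg adjustment over the 35 miRs it was 0.273, so it did not pass. A pass would need many of the 35 miRs at the smallest p, so this test cannot decide for mdm-miR164b alone.

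The size of the drop varied. The stigma share was 8.66 times the exudate share in Spadona, 5.47 times in Hosui, 3.39 times in Golan and 2.08 times in Manara. At the stigma share, 7.55 reads would have been counted in the SASA exudate, where none was, and 0.794 reads in that of Shinsui. SASA was therefore deep enough to show a drop and Shinsui was not.

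In edgeR's quasi-likelihood test the log2 fold change of mdm-miR164b, exudate against stigma, was -3.66 ± 1.47 (SE), with an unadjusted p of 0.0296 and an adjusted p of 0.0888. It was the 1 member among the 3 miRs that passed the filter on low counts, and 0 of the 3 (0%) were called at an FDR of 0.05. With the genotype as a block, which pairs the 2 libraries of a genotype, the change was -4.11 ± 0.85 and the adjusted p 0.000627, and mdm-miR164b was the 1 miR of 3 (33.3%) called. DESeq2 also called it, at -3.06 and an adjusted p of 0.0115, again 33.3% of 3. Without the filter it was one of 6 miRs called among 120 (5%), at -3.71 and an adjusted p of 0.00135, whereas mdm-miR164a (adjusted p = 0.265), fve-miR164c (0.496) and fve-miR164a-3p (0.502) were not called. Without the filter and with the genotype block, 7 of 120 miRs (5.83%) were called, mdm-miR164b among them.

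The size of the change depended on the scale. TMM, the scaling factor edgeR estimates, rested on only 3 miRs after the filter, and scaling by the full library totals gave -1.999 ± 0.93 (adjusted p = 0.0659). Leaving out Shinsui moved the change to -2.24 and leaving out SASA to -2.47, and P. syriaca alone gave -1.45 ± 0.84 (adjusted p = 0.134). The change stayed negative in every fit, but whether it passed the threshold differed between them.

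**Figure D3:**
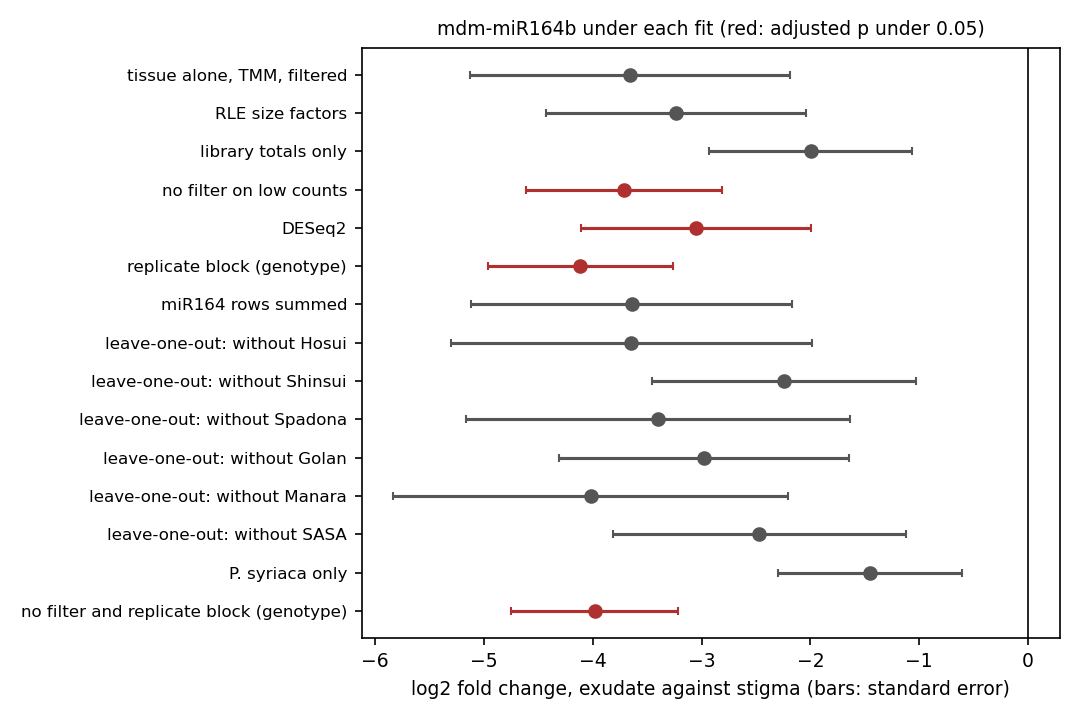
Log2 fold change of mdm-miR164b in exudate against stigma (x axis, points; bars are standard errors) under each fit (y axis), where miR164 rows summed is the whole family and red marks an adjusted p under 0.05. All values lie below 0, from -4.11 to -1.45, and 4 of the 15 fits are past the threshold.

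mdm-miR482d, a member of a family that targets resistance gene messages, took 26.0% to 64.6% of exudate reads and 6.58% to 64.8% of stigma reads, and a share of one miR falls when another rises. The share of mdm-miR164b was therefore also taken without it. It was then 32.4% in the stigma against 4.17% in the exudate of Hosui, 2.86% against 0 in Shinsui, 49.5% against 6.67% in Spadona, 58.1% against 21.6% in Golan, 39.2% against 32.6% in Manara and 30.6% against 0 in SASA. On this scale the tissues were apart in Hosui, Spadona, Golan and SASA, and in Manara the intervals overlapped (36.8 to 41.7 against 23.7 to 42.9). The mean difference was -24.6 percentage points. The part of mdm-miR482d in the tissue difference was not tested further.

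Per read of mdm-miR482d, the Golan stigma held 8.26 reads of mdm-miR164b and its exudate 0.615. The ratio was 3.22 against 0 in SASA, 2.76 against 0.333 in Manara, 1.24 against 0.105 in Spadona, 0.227 against 0.0588 in Hosui and 0.0155 against 0 in Shinsui. The stigma ratio was the higher one in each genotype, and the 3 wild stigmas had the 3 highest ratios. mdm-miR482d itself took 9.24% of reads in the wild and 50.7% in the cultivated stigmas (means), and the ratio carries this difference too. Without mdm-miR482d, the mean share of mdm-miR164b was 14.4 percentage points higher in wild stigmas, against 22.3 on all reads. By the exact permutation test the adjusted p without mdm-miR482d was 0.883.

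**Figure D4:**
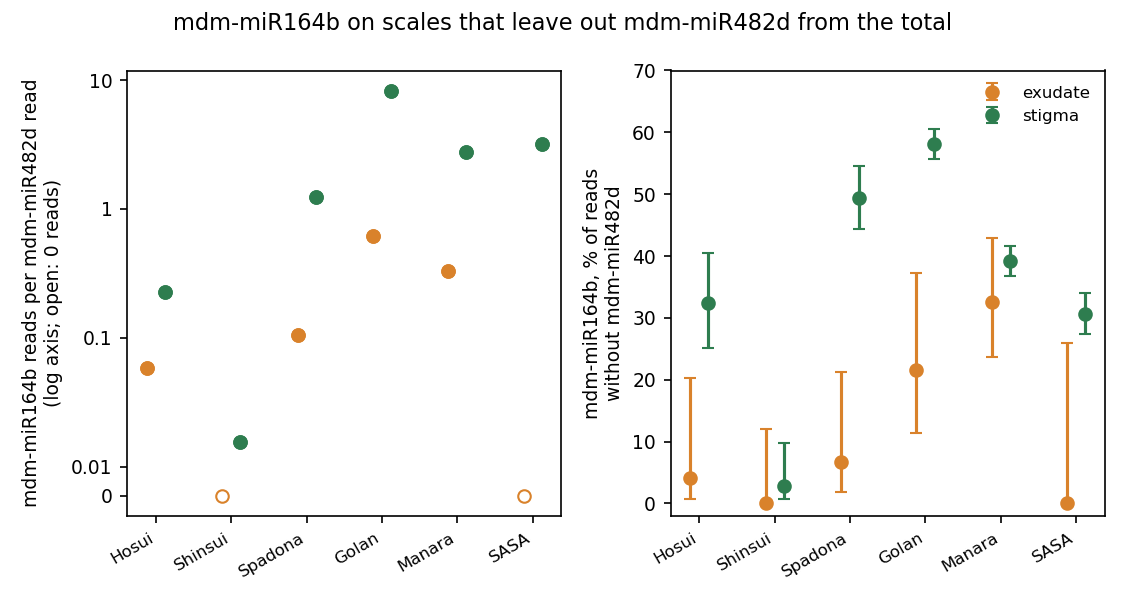
Left, reads of mdm-miR164b per read of mdm-miR482d (log axis, open symbols are 0 reads) and right, its share of the reads left without mdm-miR482d (%, bars are Wilson 95% intervals), for each genotype (x axis) in exudate and stigma. In Manara the share without mdm-miR482d was 32.6% in the exudate and 39.2% in the stigma, with overlapping intervals.

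The second comparison set wild against cultivated pears. In stigmas mdm-miR164b took 38.9% ± 13.8 in the 3 wild pears and 16.6% ± 17.4 in the 3 cultivated ones (SD). The groups overlapped, because Spadona at 35.4% lay above Manara and SASA, whereas 9 of 30 miRs (30%) did not overlap. One of these 9 was fve-miR164c, at 0.355% ± 0.0994 in the wild and 0.0651% ± 0.113 in the cultivated stigmas (SD, n = 3), which did not pass the exact permutation test (p = 0.1, adjusted 0.333) and rests on 17 reads. For mdm-miR164b the exact two-sided permutation test gave p = 0.3, or 0.529 adjusted over 30 miRs, and 3 against 3 libraries cannot go below 0.1. By edgeR its log2 fold change, wild against cultivated, was 0.93 ± 1.03 (adjusted p = 0.528), and 2 of 8 miRs (25%), neither of them a miR164 member, were called. Without the filter 4 of 114 (3.51%) were called, again no member, with mdm-miR164b at 1.77 ± 0.63 (adjusted p = 0.0733). With the filter, the change was 0.05 without Shinsui, 0.19 without Hosui and 0.30 without Golan, and 1.22 without SASA, 1.42 without Manara and 1.59 without Spadona. All wild pears were P. syriaca and grew at 450 m or higher, so origin, species and altitude cannot be told apart.

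The cultivated group was itself uneven. Both P. pyrifolia cultivars grew at the same altitude, yet their stigma shares of 13.4% and 1.01% were apart by their intervals, and the P. communis stigma at 35.4% was above both. Without P. communis the edgeR change was 1.59 ± 1.002 (adjusted p = 0.388).

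In exudates mdm-miR164b took 10.8% ± 9.38 in the wild and 2.17% ± 2.05 in the cultivated pears (SD, n = 3), and the groups overlapped, since SASA had no read. edgeR's filter left 1 miR, which was not a member, and 0 of 1 (0%) was called. Without the filter the change was 2.42 ± 0.79, with an adjusted p of 0.138 over 61 miRs. The tissue difference itself, tested as an interaction with origin, was 1.85 ± 2.04 on the log2 scale (adjusted p = 0.674), and 1.73 ± 1.08 with the genotype block (adjusted p = 0.259). 1 of the 4 miRs in these fits (25%) was called, and it was not mdm-miR164b.

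Among 12 miRs with a read in every stigma, those whose shares were most like mdm-miR164b over the 6 stigmas were mdm-miR169a (Spearman rho 0.60), mdm-miR396b (0.49) and mdm-miR1511 (0.43), and the least like was mdm-miR7120a-3p (-0.89). These values describe 6 libraries whose shares sum to a fixed total. On shares without mdm-miR482d the values were -0.26 for mdm-miR169a, -0.49 for mdm-miR396b and -0.60 for mdm-miR1511, and all 11 miRs left were negative.

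Of the families known from pollen, miR158 has no row in the count table and could not be counted, and miR845 has 1 row, without a read. miR159 has 6 rows and had 6 reads in exudates and 217 in stigmas, at 0 to 6.12% and 0.977% to 8.19% of a library. The part of pollen in the miR164 reads was not tested.

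The predicted targets come from pairing with Arabidopsis transcripts, where 9 loci were listed for mdm-miR164b in the exudate table and 8 for mdm-miR164a in the stigma table. The stigma table covers miRs that the authors found in stigmas alone, and the exudate table those found in both tissues. The tables thus divide the miRs and are no inventory of each tissue. mdm-miR164b stands in the exudate table, though it had 1960 reads in stigmas and 40 in exudates. fve-miR164c and fve-miR164a-3p had no row. With its 1 exudate read, fve-miR164c was neither common to both tissues nor specific under the authors' rule, and was discarded before target prediction. fve-miR164a-3p met the rule for a stigma-specific miR, but no locus was listed for it. Of 7 NAC genes known as miR164 targets in Arabidopsis, 7 stood under mdm-miR164b (CUC1, CUC2, NAC1, ORE1, AT5G07680, AT5G61430 and AT3G12977) and 6 under mdm-miR164a, which lacked ORE1. CUC3, a boundary gene related to CUC1 and CUC2, and KIR1, a NAC gene that promotes the death of Arabidopsis stigma papillae, were in neither table. ORE1, which stood under mdm-miR164b, also promotes cell death in the Arabidopsis stigma. The other loci were BRI1, the brassinosteroid receptor, under both members, AT1G10530 under mdm-miR164b and AT5G13010 under mdm-miR164a. Of these names the files give NAC1 and BRI1.

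The sites under mdm-miR164b are shown because they differ in where pairing is lost. They are written 5′ to 3′, so that the last base faces base 1 of the miR, with bases outside a Watson-Crick pair in capitals.
CUC1 and CUC2: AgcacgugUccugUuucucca
AT5G07680 and AT5G61430: uUUacgugcccugcuucucca
NAC1: uCUacgugcccugcuucucca
AT3G12977 and ORE1: AgcacguAcccugcuucucca
AT1G10530: AgcaUguAcccugcuucucca
BRI1: CUcacgugAccugcuucuccG

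The 5 sites at NAC1, AT5G07680, AT5G61430, AT3G12977 and ORE1 had 19 Watson-Crick pairs of 21, those at CUC1, CUC2 and AT1G10530 had 18, and that at BRI1 had 17. Positions 10 and 11 of the miR, between which plant miRs direct cleavage, were paired in all 17 pairings. These hold only 6 distinct site sequences, and the 2 miRs differ only at bases 17 and 21. The authors kept sites by a limit on the prediction score, so close pairing is partly set by that choice. The seed was fully paired except at CUC1 and CUC2, which had a G:U pair at position 8. Position 17, where mdm-miR164a differs from mdm-miR164b, was unpaired in 7 of the 8 pairings of mdm-miR164a. On the 5 sites that both members share at the same locus, mdm-miR164a had 17 pairs against 18 or 19 for mdm-miR164b.

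**Figure D5:**
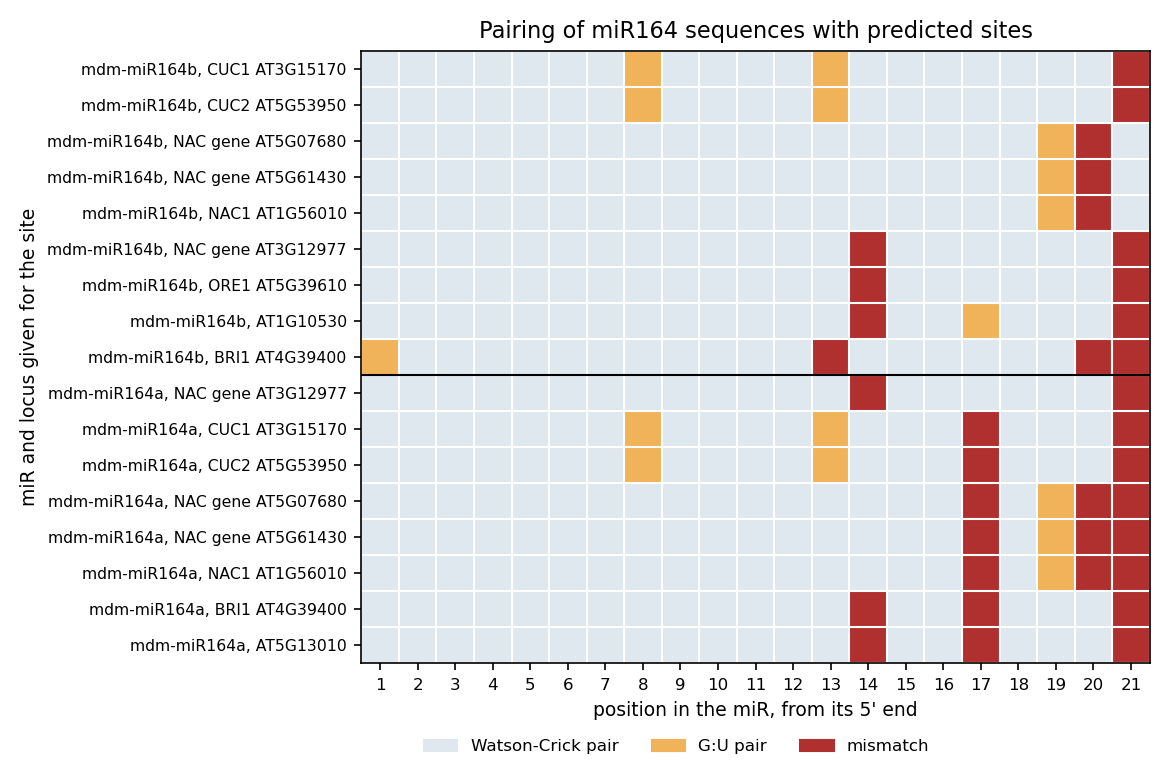
Pairing of mdm-miR164b (upper 9 rows) and mdm-miR164a (lower 8 rows) with the site listed at each locus (y axis), by position from the 5′ end of the miR (x axis), where grey is a Watson-Crick pair, orange a G:U pair and red a mismatch. Positions 10 and 11 were paired in all 17, which hold 6 distinct site sequences, and red at position 17 appears only under mdm-miR164a.

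The locus given for a site was not always the same. Of 8 sites listed for both members, 3 stood at different loci: the site at 717 to 737 was given to AT1G10530 and to AT3G12977, that at 777 to 797 to AT3G12977 and to BRI1, and that at 802 to 822 to ORE1 and to AT5G13010. Over both tables, 26 of 48 sites listed for at least 2 miRs stood at different loci. The match of BRI1, ORE1, AT3G12977, AT1G10530 and AT5G13010 to their sites is therefore uncertain, and CUC1, CUC2, NAC1, AT5G07680 and AT5G61430 kept 1 locus in both tables.

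fve-miR164c paired best with the site at 717 to 737, with 20 pairs and 1 mismatch, against 19 pairs for mdm-miR164a and 18 for mdm-miR164b. This was computed from the listed sites, as fve-miR164c has no row.

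A miR164 locus was in all 29 GO terms of the exudate table and all 49 of the stigma table, and a known NAC target in 28 and 44 of them. The term regulation of gene expression held 18 loci in the exudate table, of which 7 (38.9%) were the known NAC targets, against 7 of all 47 loci of that table (14.9%). In the stigma table it held 49 loci, of which 6 (12.2%) were known NAC targets, against 6 of all 120 (5%). Every known NAC target of each table was in this term, so its higher percentages follow from its smaller number of loci and test no enrichment. The pollen list holds 25 of the 47 exudate table loci (53.2%), and of the 9 loci of mdm-miR164b it holds 2 (22.2%), NAC1 and BRI1. A predicted pairing is no measurement of the target, and no target level was measured here.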

How the data were processed

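Small RNA was sequenced from 12 libraries, 1 per genotype and tissue. The authors deposited whole-number read counts per mature miR, without normalization, after trimming with cutadapt 1.1 and matching to apple, strawberry and peach miRs with mismatches allowed. By their methods, a sequence with several entries carries the average count of those entries, and mdm-miR164b has 10 names in these species. A library total therefore need not equal its number of distinct reads. Exudate totals were 27 to 176 reads and stigma totals 199 to 1777. The target tables, GO terms and pollen loci are the authors' predictions and lists, and their p-values were not used. The members and lists were chosen with earlier results of these data known. Shares were given Wilson 95% intervals and compared by exact sign-flip or permutation tests. Counts were tested by edgeR 4.0.16 (TMM, filterByExpr, quasi-likelihood, Benjamini-Hochberg) in R 4.3.3, with DESeq2 1.42.0 as the other tool, and standard errors of edgeR were derived from its F statistic. Exact tests ran in Python 3.11.15 with scipy 1.17.1. The named genes were all members, the 3 most like and the 1 least like miR, all listed loci, and known NAC genes. The genotype pairs the libraries by design, although an exudate was closest to its own stigma in 2 of 6 genotypes (correlations -0.0587 to 0.589 over 35 miRs). Of the count tests, only the unblocked, filtered edgeR fit was run on simulated data, at the real depth and deeper, with 1 spread for all miRs. The blocked, unfiltered and DESeq2 fits, which called mdm-miR164b, were not simulated. With no change simulated, false calls stayed under the threshold, but when a few miRs changed strongly, unchanged ones were also called, because few miRs set the scale. Alternatives were other scalings, filters, blocks, presence rules, and each genotype left out.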

Additional observations from a re-analysis of the deposited data

Results flagged for a closer look

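The share of fve-miR164c in the Manara exudate, 0.568%, stood apart from the other 5 exudates, which had no read of it. It rests on 1 read of 176. With no read in the other 5 exudates, a single read in any library stands apart in this way, whatever its share. A chance rate of about 1 in 20 groups therefore cannot be applied to such sparse counts (6 groups were examined).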

How the results depend on the processing

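For mdm-miR164b in exudate against stigma, 4 alternatives passed the threshold that the unblocked edgeR fit missed: the replicate block (genotype) at -4.11, no filter at -3.71, DESeq2 at -3.06, and no filter with the block, added after seeing the data, at -3.98 (adjusted p 1.96e-05). The other 10 kept the direction and stayed short of it, and over all 14 the adjusted p ran from 1.96e-05 to 0.256. The number of miRs called was 0 of 3, against 6 of 120 without the filter and 7 of 120 with the block as well. mdm-miR164b did not pass the filter in the cultivated pears alone. Leaving out 1 genotype gave -4.02 to -2.24 for this change, 0.05 to 1.59 for wild against cultivated stigmas, 1.64 to 2.80 for the interaction, -25.3 to -17.8 percentage points for the tissue difference in share and 14.5 to 31.7 for that between wild and cultivated stigmas. The edgeR values were all short of the threshold, and the share tests could not pass it, since their smallest p is then 0.0625 and 0.1. In the wild and cultivated stigmas 2 of 8 miRs were called, against 4 of 114 without the filter, 1 of 8 by DESeq2 and 0 by library totals. For wild against cultivated exudates, edgeR without the filter was the only fit that tested a member: it called 0 of 61 miRs, and the 1 miR at an unadjusted p under 0.05 was mdm-miR164b (edgeR adjusted p = 0.138). All other fits of this comparison, DESeq2 included, tested no member. The genotype block changed no other call of a miR164 member. Without pairing, the share difference had an adjusted p of 0.192 by the permutation test. With 1 read enough for presence, 2 members were present in exudates, and stricter rules left 3 in stigmas. With at most 3 positions outside a Watson-Crick pair, G:U pairs counted among them, 8 loci remained for mdm-miR164b and 3 for mdm-miR164a. With at most 2 they were 5 and 1, and both limits were added after seeing the data. The likeness of mdm-miR169a went from 0.60 to -0.26 on shares without mdm-miR482d. Stricter prediction scores were not run, as the tables used here hold none. Exudate depth limits every statement on the minor members.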
